A study of Arabidopsis thaliana with 8 samples.

Results

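The mitochondria-encoded genes of Arabidopsis thaliana were taken as all genes whose identifier begins with ATMG, which gave 152 of the 33977 genes in the deposited expression table. They comprised 24 entries for subunits of the respiratory complexes, 7 ribosomal protein genes, 5 cytochrome c maturation genes, 2 genes for a maturase and a protein transporter, 3 ribosomal RNAs, 21 transfer RNAs, 6 other entries and 84 reading frames with no named product. RNA came from floral buds of stages 8 to 10, pooled, of the transgenic line pSTK::amiRNACWIN24 (4-3), called amiRNACWIN24 here, and of wild type (WT), with 4 biological replicates of each and 8 libraries in all. In the line the promoter of STK, a gene active in ovules, drives an artificial microRNA whose name refers to CWINV2 and CWINV4, enzymes that split sucrose in the cell wall. It is 1 transgenic line, so an effect of the line cannot be told apart from one of the construct. Expression was deposited as RPKM, which is reads divided by transcript length in kilobases and by library size in M reads, so levels of different genes can be set side by side on this scale. Each fold change sets amiRNACWIN24 over WT and was computed on log2(RPKM + 0.5), a scale that makes the change of low genes look smaller.

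The mitochondrial genome of a flowering plant is a remnant of a bacterial genome. It keeps genes for part of the electron transport chain, for some ribosomal proteins, for the assembly of c-type cytochromes and for its own ribosomal and transfer RNAs, while most subunits of the same complexes are encoded in the nucleus and imported. Its transcripts are spliced, some of them in trans from separately transcribed pieces, and are edited from C to U. Mature plant mitochondrial transcripts lack a stable poly(A) tail, so selection of polyadenylated RNA recovers them poorly. Anthers and pollen mother cells are tissues rich in mitochondria, and several unnamed mitochondrial reading frames of other species are known for causing male sterility.

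Most of these coding genes have a look-alike on chromosome 2, where a large piece of mitochondrial DNA is inserted next to the centromere. Of 38 members whose coding sequence could be matched by name to the RefSeq TAIR10.1 mitochondrial annotation, 30 had a copy on chromosome 2 with at least 95% identity over at least 50% of the coding sequence. The 8 without one were ATP4, CCMB, COX1, COX2, NAD4L, NAD9, RPL16 and RPS3. Of these, COX2, RPL16 and RPS3 had shorter nuclear matches, over 42.8%, 40.6% and 9.9% of the coding sequence. The unnamed reading frames were not examined for copies. The first 120 bases of the nuclear copies of NAD3 and RPS12 are shown because their genomic sequence equals that of the mitochondrial genes. Reads from them cannot be told apart by sequence from mitochondrial reads that hold no edited base. Both are on the plus strand of chromosome 2, NAD3's copy AT2G07751 at chr2:3270008-3270364 and RPS12's copy AT2G07675 at chr2:3270410-3270787, in TAIR10 coordinates and with RefSeq TAIR10.1 letters. Over their full 357 and 378 bases, 0 bases differed from the RefSeq mitochondrial genes, and the capitals mark the first codon.
AT2G07751: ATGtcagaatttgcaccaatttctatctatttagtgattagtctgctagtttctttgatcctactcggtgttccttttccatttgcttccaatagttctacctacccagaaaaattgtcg
AT2G07675: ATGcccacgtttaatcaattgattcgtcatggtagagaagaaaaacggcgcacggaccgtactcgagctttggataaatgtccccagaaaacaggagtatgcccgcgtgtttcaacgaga

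The libraries held 22.5 to 26.2 M reads in genes for amiRNACWIN24 and 25.5 to 26.7 M for WT, as read off the step of RPKM that a single read makes. These are reads of the 32532 of 33977 genes whose coordinates matched RefSeq TAIR10.1, among them no mitochondria-encoded gene. Apart from these, the mitochondria-encoded genes took 732 to 2922 reads in amiRNACWIN24 libraries and 1968 to 3936 reads in WT libraries. A tested member rested on 0 to 750 reads in a library. CWINV4, a target named in the construct, had 15.0, 11.2, 14.0 and 14.9 RPKM in amiRNACWIN24 and 24.3, 25.2, 29.8 and 28.3 RPKM in WT, with every amiRNACWIN24 library below every WT library. CWINV2 had 0.0166 to 0.104 RPKM in amiRNACWIN24 libraries and 0.0161 to 0.0317 RPKM in WT replicates 2 to 4, against 2.75 RPKM in WT replicate 1. STK, the gene whose promoter drives the construct, had 0.41 to 0.767 RPKM in amiRNACWIN24 libraries and 8.41 to 11.2 RPKM in WT libraries. ACOS5, a gene of the tapetum, had 55.3 to 141 RPKM in amiRNACWIN24 libraries and 11.0 to 59.0 RPKM in WT libraries, and VGD1, a pollen gene, had 14.7 to 23.9 RPKM in amiRNACWIN24 libraries and 93.2 to 176 RPKM in WT libraries. VGDH1, another pollen gene, had 0.165 to 0.417 RPKM in amiRNACWIN24 libraries. In WT replicates 1 to 4 it had 18.4, 3.78, 0.249 and 0.236 RPKM, so its groups overlapped. The groups of ACOS5 overlapped too, between amiRNACWIN24 replicate 3 at 55.3 RPKM and WT replicate 3 at 59.0 RPKM. ACOS5, VGD1 and VGDH1 mark anther cells of these buds, and the part of anther stage in the values below was not tested. BCP1, AGP6, STP9, MS1 and MS2 were also listed as anther markers, and their values are not given here. 2 libraries stood apart from the rest of their groups. Reads outside the matched genes, called reads outside genes below, include those of unmatched genes. They made up 12.1% of amiRNACWIN24 replicate 2 against 2.11% to 2.21% of the other amiRNACWIN24 libraries. In WT replicate 1 they made up 12.5%, against 3.3% to 4.74% of the other WT libraries.

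The same 2 libraries were the highest of their groups in organelle transcripts. Summed over the 152 members, expression was 45.1, 175, 44.9 and 49.1 RPKM in amiRNACWIN24 replicates 1 to 4 and 221, 129, 129 and 184 RPKM in WT replicates 1 to 4. The groups overlapped through amiRNACWIN24 replicate 2, which lay above 2 of the WT libraries, while the other 3 amiRNACWIN24 libraries were below every WT library. Summed chloroplast-encoded genes, again with amiRNACWIN24 replicate 2 and WT replicate 1 highest, were at 64.0, 650, 72.9 and 76.0 RPKM in amiRNACWIN24 and at 687, 204, 219 and 417 RPKM in WT. The part that the reads outside genes had in the organelle values was not tested. In pooled buds, fewer cells of a type and less RNA per cell cannot be told apart.

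**Figure D1:**
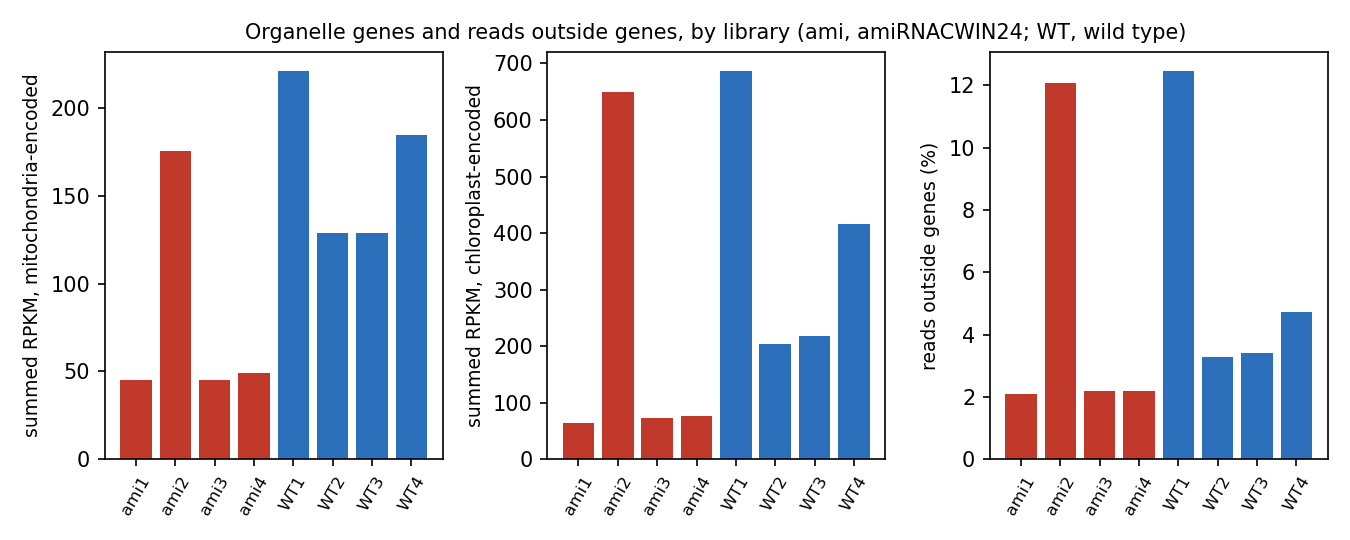
Summed RPKM of the 152 mitochondria-encoded genes (left), summed RPKM of the 133 chloroplast-encoded genes (middle) and percent of reads outside the genes with matched coordinates (right), with 1 bar per library, amiRNACWIN24 in red and WT in blue. amiRNACWIN24 replicate 2 (175 RPKM, 650 RPKM, 12.1%) and WT replicate 1 (221 RPKM, 687 RPKM, 12.5%) are the highest of their groups in all 3 panels.

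Mitochondria-encoded genes had low values in this table. Of the 152 genes 39 were listed at 0 in all 8 libraries, among them all 3 ribosomal RNAs, all 21 transfer RNAs, the exon entry NAD5B, the ribosomal protein gene RPS7 and 7 unnamed reading frames. Since ribosomal and transfer RNAs are used by every cell, a listed 0 here does not show that a transcript was absent. An average of 1 RPKM or more across the libraries was reached by 33 genes, which entered the fit across all genes; these were 19 respiratory entries, 3 ribosomal protein genes, 2 cytochrome c maturation genes, the maturase gene and 8 unnamed reading frames. In every one of the 33 the estimated fold change was below 0. With all 8 libraries 12 of the 33 fell, 0 rose and 21 did not pass (limma, Benjamini-Hochberg adjusted p under 0.05 over 19082 genes), where 21% of all genes tested fell and 29.4% rose. At an unadjusted p under 0.05, 15 of the 33 fell and 0 rose, beside 23.9% and 33% of all genes. With limma's voom on the recovered reads 13 fell and 0 rose, beside 20.3% and 29.9% of all genes. The median log2 fold change was -0.79 for the 33 genes, beside 0.07 for all genes tested.

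The count depended on amiRNACWIN24 replicate 2. Without that library 29 of the 33 fell, where 17.3% of all genes tested fell, and the median log2 fold change was -1.19. Without it and WT replicate 1 together, 27 fell, where 21.4% of all genes tested fell. amiRNACWIN24 replicate 2 was more than 2-fold above each of the other amiRNACWIN24 libraries for 22 of the 33 mitochondria-encoded genes (66.7%), against 86 of the 19082 genes tested (0.451%). In the other 3 amiRNACWIN24 libraries 28 of the 33 genes (84.8%) were below every WT library, a pattern shared by 19.0% of all genes tested. When a trend of expression with exon length was removed within each library, 1 of the 33, ATP6-2, still passed, where 13.9% of all genes tested fell, and the median log2 fold change was -0.36.

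**Figure D2:**
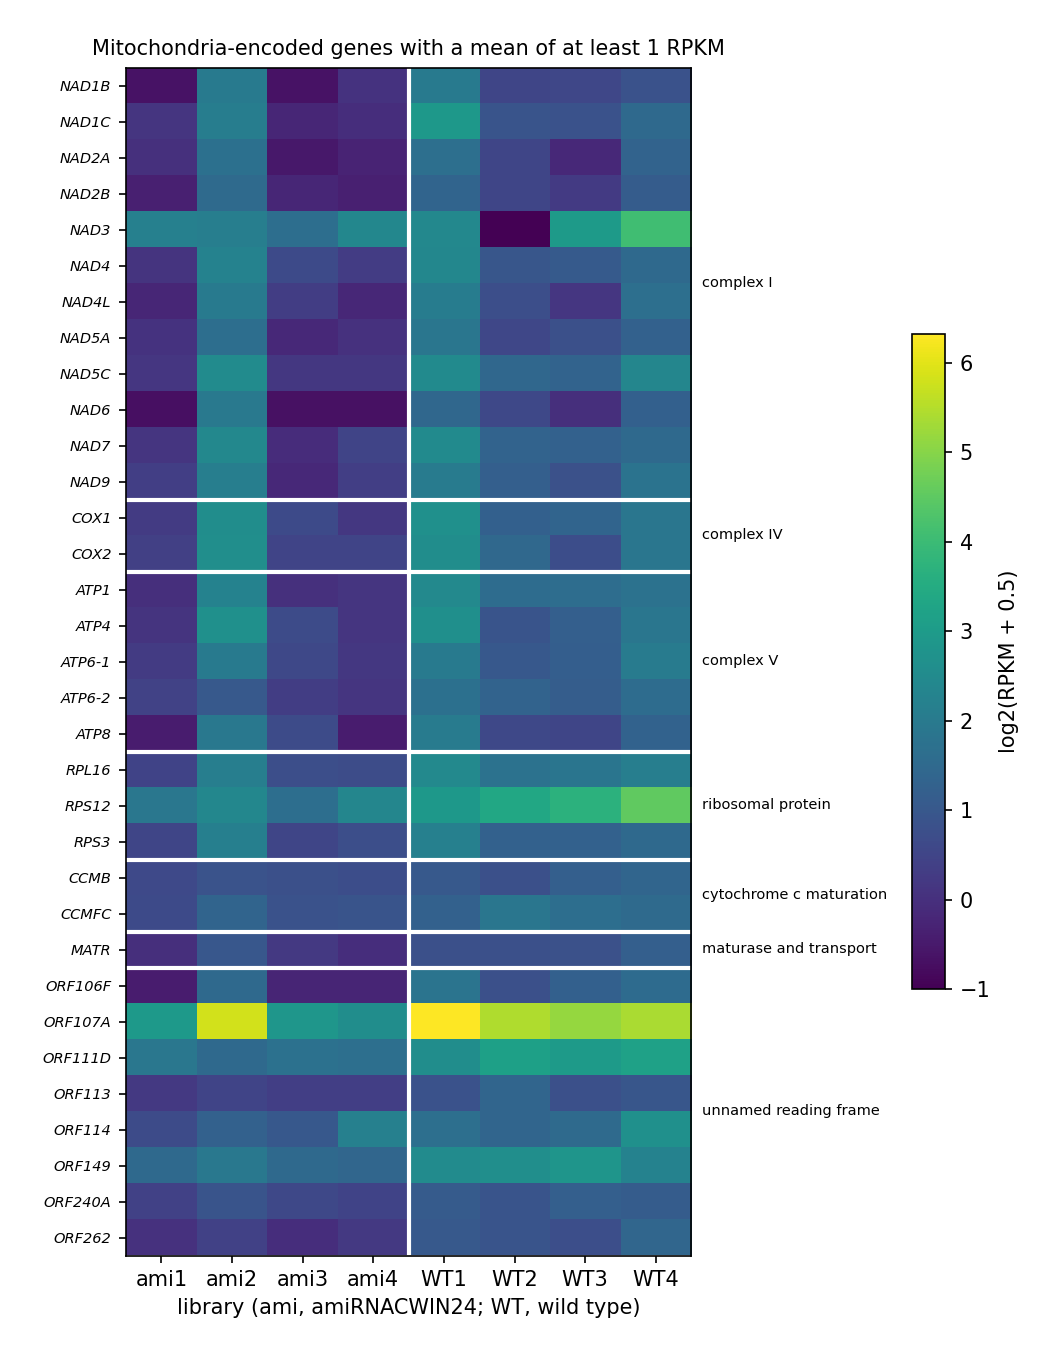
Expression of the 33 mitochondria-encoded genes that average 1 RPKM or more, as log2(RPKM + 0.5), in the 4 amiRNACWIN24 libraries (left) and the 4 WT libraries (right), grouped by class. In most respiratory rows amiRNACWIN24 replicate 2 and WT replicate 1 are bright and the other 3 amiRNACWIN24 libraries dark, while ORF111D, ORF149, ORF113 and ORF262 are darker in all 4 amiRNACWIN24 libraries than in all 4 WT libraries.

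The respiratory genes made up 33.6% of the summed mitochondria-encoded RPKM, and 2 of their 19 tested entries fell, 0 rose and 17 did not pass, a smaller share that fell than among all genes tested (21%). Both that fell encode parts of complex V, the ATP synthase that turns the proton gradient into ATP. Without amiRNACWIN24 replicate 2, 17 of the 19 fell, where 17.3% of all genes tested fell. The median log2 fold change of the 19 was -0.79 with all libraries and -1.23 without that library. With WT replicate 1 left out as well, 15 of the 19 fell, where 21.4% of all genes tested fell, and the median was -1.05.

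Complex I, the NADH dehydrogenase that feeds electrons from NADH into the chain, has 14 entries because NAD1, NAD2 and NAD5 are listed in pieces that are joined by trans-splicing. Of these, 12 were tested and 0 passed with all 8 libraries, whether by limma on log2(RPKM + 0.5) or by voom, and 1, NAD5C, had an unadjusted p under 0.05. Without amiRNACWIN24 replicate 2, 10 of the 12 fell, where 17.3% of all genes tested fell. With WT replicate 1 left out as well, 9 of the 12 fell, where 21.4% of all genes tested fell. NAD5C (ATMG00060, mitochondrial positions 20571 to 22086 of TAIR10, minus strand), a piece of the proton-pumping subunit ND5, had 0.621, 5.27, 0.627 and 0.629 RPKM in amiRNACWIN24 and 5.2, 2.21, 2.01 and 4.67 RPKM in WT. amiRNACWIN24 replicate 2 was above all 4 WT libraries and the other 3 amiRNACWIN24 libraries were below all of them. Its mean was 1.79 ± 2.32 RPKM in amiRNACWIN24 and 3.52 ± 1.65 RPKM in WT (SD, n = 4 each). It did not pass with all libraries, at -1.15 ± 0.51 (SE; limma adjusted p = 0.085), and -1.74 without amiRNACWIN24 replicate 2 (limma adjusted p = 0.00217).

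NAD7 (ATMG00510, positions 132071 to 138153, plus strand), a subunit of the matrix arm that holds the quinone site, had 0.599, 4.86, 0.446 and 0.927 RPKM in amiRNACWIN24 and 5.16, 2.02, 1.91 and 2.32 RPKM in WT. Again amiRNACWIN24 replicates 1, 3 and 4 were below every WT library, and WT replicate 1 was the highest of all 8. NAD7 did not pass with all libraries, with a log2 fold change of -0.90 ± 0.50 (SE; limma adjusted p = 0.153). It fell without amiRNACWIN24 replicate 2, by 1.46 on the log2 scale (limma adjusted p = 0.00505).

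NAD6, a membrane-arm subunit with 2 recovered reads in each of amiRNACWIN24 replicates 1, 3 and 4, had 0.121, 3.36, 0.122 and 0.123 RPKM in amiRNACWIN24 and 2.22, 0.998, 0.487 and 1.85 RPKM in WT. amiRNACWIN24 replicate 2 was the highest of all 8 libraries, and NAD6 did not pass, at -0.84 ± 0.58 (SE; limma adjusted p = 0.249). The excess of amiRNACWIN24 replicate 2 over the mean of the other amiRNACWIN24 libraries, 27.5-fold, was the largest among the 33 members. Among the other entries NAD1B, NAD1C, NAD2A, NAD2B, NAD4, NAD4L, NAD5A and NAD9 the log2 fold changes were -0.61 to -1.05 and none passed, with limma adjusted p from 0.142 to 0.346. Their levels in amiRNACWIN24 replicates 1, 3 and 4 were all under 1.1 RPKM, while in amiRNACWIN24 replicate 2 they were 2.38 to 4.21 RPKM. In WT replicate 1 they were 2.09 to 6.91 RPKM. NAD1C also encloses the maturase gene MATR within its intron on the same strand.

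NAD3 (ATMG00990, positions 260647 to 261006, minus strand), a small membrane-arm subunit, went against this pattern. It had 4.05, 3.91, 2.62 and 4.73 RPKM in amiRNACWIN24 and 4.87, 0, 7.42 and 16.5 RPKM in WT. amiRNACWIN24 replicate 2 did not stand apart, and WT replicate 2 was listed at 0 while the other 3 WT libraries were above all amiRNACWIN24 libraries. The identical nuclear copy AT2G07751 was the mirror image, at 5.28 RPKM in WT replicate 2 and at 0 in the other 7 libraries, so the 0 of NAD3 in that library was matched by reads listed under the copy. The log2 fold change of NAD3 was -0.03 ± 0.84 (SE; limma adjusted p = 0.977). Without WT replicate 2 it fell, at -1.08 (limma adjusted p = 0.0281), and in 9 other alternatives its estimate was above 0.

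Complex III and complex IV carry electrons from quinol through cytochrome c to oxygen. Their mitochondrial members are COB, the cytochrome b of complex III, and COX1, COX2 and COX3, the catalytic core of cytochrome c oxidase. COB was listed at 0 to 0.0961 RPKM in amiRNACWIN24 libraries and at 0 to 0.378 RPKM in WT libraries, and was not tested. COX3 averaged 0.456 RPKM in amiRNACWIN24 and 1.05 RPKM in WT and was not tested either. COX1 (ATMG01360, positions 349830 to 351413, minus strand), which has no near-identical nuclear copy, had 0.708, 5.49, 1.07 and 0.646 RPKM in amiRNACWIN24 and 5.94, 1.88, 2.09 and 3.13 RPKM in WT. COX2, with a nuclear match over 42.8% of its coding sequence, had 0.812, 5.6, 0.917 and 0.919 RPKM in amiRNACWIN24 and 5.48, 2.27, 1.15 and 3.14 RPKM in WT. In both genes amiRNACWIN24 replicates 1, 3 and 4 were below every WT library and amiRNACWIN24 replicate 2 was close to WT replicate 1. Neither passed with all libraries, with log2 fold changes of -0.87 ± 0.50 for COX1 (SE; limma adjusted p = 0.173) and -0.66 ± 0.51 for COX2 (SE; limma adjusted p = 0.305), and at an unadjusted p under 0.05 neither was called. Both fell without amiRNACWIN24 replicate 2, by 1.42 for COX1 (limma adjusted p = 0.00759) and by 1.19 for COX2 (limma adjusted p = 0.0259), on the log2 scale.

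Complex V held the 2 respiratory genes that fell with all libraries. ATP6-2 (ATMG01170, positions 296820 to 298204, minus strand) encodes subunit a, which forms the proton channel with the c ring. It had 0.864, 1.55, 0.764 and 0.602 RPKM in amiRNACWIN24 and 2.73, 2.02, 1.74 and 2.5 RPKM in WT, with every amiRNACWIN24 library below every WT library. Its mean was 0.946 ± 0.42 RPKM in amiRNACWIN24 and 2.25 ± 0.449 RPKM in WT (SD, n = 4 each), and its log2 fold change was -0.95 ± 0.21 (SE; limma adjusted p = 0.00385). This was the only respiratory entry without overlap between the groups, beside 18.4% of all genes tested in which every amiRNACWIN24 library was below every WT library, and the only one that passed after removal of the length trend, at -0.81 (limma adjusted p = 0.035). ATP6-1, which shares most of its coding sequence with ATP6-2, had 0.707, 3.59, 1.0 and 0.631 RPKM in amiRNACWIN24 and 3.54, 1.54, 1.8 and 3.65 RPKM in WT, with amiRNACWIN24 replicate 2 among the highest libraries. It did not pass, at -0.81 ± 0.40 (SE; limma adjusted p = 0.116). Because the sequences are shared, the division of reads between both ATP6 genes is uncertain.

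ATP1 (ATMG01190, positions 302166 to 303689, minus strand), the alpha subunit of the catalytic head, had 0.491, 4.29, 0.521 and 0.596 RPKM in amiRNACWIN24 and 5.0, 2.5, 2.59 and 2.9 RPKM in WT. The groups overlapped only through amiRNACWIN24 replicate 2. It fell, with a log2 fold change of -1.26 ± 0.46 (SE; limma adjusted p = 0.0419), but did not pass after removal of the length trend, at -1.19 (limma adjusted p = 0.12). Without amiRNACWIN24 replicate 2 it fell, at -1.81 (limma adjusted p = 0.000742), whereas with any 1 of the other 7 libraries left out it did not pass (limma adjusted p from 0.0546 to 0.11). ATP4 and ATP8, subunits of the stator and of the membrane part, had amiRNACWIN24 replicate 2 and WT replicate 1 as the highest of their groups, with amiRNACWIN24 replicate 2 at 5.95 and 3.28 RPKM, and did not pass, at -0.76 ± 0.56 and -0.68 ± 0.52 (SE; limma adjusted p = 0.28 and 0.299).

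Ribosomal protein genes gave 2 that fell, 0 that rose and 1 that did not pass among 3 tested of 7, with a median log2 fold change of -1.02. Of all genes tested, 21% fell. RPS12 (ATMG00980, positions 260224 to 260601, minus strand), a small-subunit protein near the decoding site, was the most abundant named gene. It had 3.26, 4.76, 2.6 and 4.61 RPKM in amiRNACWIN24 and 7.0, 9.89, 12.7 and 22.6 RPKM in WT. The groups did not overlap, WT replicate 1 was the lowest of WT rather than the highest, and amiRNACWIN24 replicate 2 was 1.37-fold above the mean of the other amiRNACWIN24 libraries. Its mean was 3.81 ± 1.05 RPKM in amiRNACWIN24 and 13.0 ± 6.76 RPKM in WT (SD, n = 4 each), and the log2 fold change was -1.56 ± 0.30 (SE; limma adjusted p = 0.00192). RPS12 lies next to NAD3 on the same strand, and WT replicate 4 was the highest library for both.

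RPL16 (ATMG00080, positions 25076 to 25615, minus strand), a large-subunit protein, had 0.9, 3.91, 1.19 and 1.12 RPKM in amiRNACWIN24 and 4.9, 2.89, 3.07 and 3.9 RPKM in WT. amiRNACWIN24 replicate 2 was above 3 of the WT libraries and the other 3 amiRNACWIN24 libraries below all of them. It fell, at -1.02 ± 0.33 (SE; limma adjusted p = 0.0238), but did not pass with amiRNACWIN24 replicate 1, 3 or 4 or WT replicate 1 left out (limma adjusted p from 0.0548 to 0.0666). RPS3, a small-subunit protein whose reading frame overlaps that of RPL16 on the same strand, had 0.94, 3.94, 0.95 and 1.18 RPKM in amiRNACWIN24 and 4.07, 1.93, 1.92 and 2.33 RPKM in WT, with amiRNACWIN24 replicates 1, 3 and 4 below every WT library. It did not pass, at -0.57 ± 0.35 (SE; limma adjusted p = 0.202). Without amiRNACWIN24 replicate 2 all 3 fell, where 17.3% of all genes tested fell. After removal of the length trend 0 of the 3 passed, also at an unadjusted p under 0.05. RPL2, RPL5 and RPS4 averaged under 1 RPKM, at 0.432, 0.263 and 0.286 RPKM in amiRNACWIN24 and 0.817, 0.275 and 0.118 RPKM in WT.

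Of the cytochrome c maturation genes, whose products attach heme to c-type cytochromes, 2 of 5 were tested. They are named here after their values were seen, as are the maturase gene, ORF106F, ORF240A, ORF114 and all members that average under 1 RPKM. CCMFC had 1.07, 2.05, 1.28 and 1.37 RPKM in amiRNACWIN24 and 1.9, 3.18, 2.63 and 2.42 RPKM in WT, overlapping only between amiRNACWIN24 replicate 2 and WT replicate 1. It fell, at -0.65 ± 0.18 (SE; limma adjusted p = 0.0138). CCMB had 1.02, 1.32, 1.22 and 1.16 RPKM in amiRNACWIN24 and 1.55, 1.23, 1.82 and 2.13 RPKM in WT, where amiRNACWIN24 replicate 2 was above WT replicate 2. It did not pass, at -0.36 ± 0.16 (SE; limma adjusted p = 0.0848). MATR, the intron-encoded maturase that takes part in splicing, had 0.481, 1.49, 0.655 and 0.469 RPKM in amiRNACWIN24 and 1.23, 1.24, 1.27 and 1.84 RPKM in WT, with amiRNACWIN24 replicate 2 above 3 of the WT libraries. It did not pass, at -0.63 ± 0.24 (SE; limma adjusted p = 0.053). In CCMB and CCMFC amiRNACWIN24 replicate 2 was 1.17-fold and 1.65-fold above the mean of the other amiRNACWIN24 libraries, against a median of 7.01-fold in the respiratory entries.

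The unnamed reading frames held 49.6% of the summed mitochondria-encoded RPKM, most of it in 1 gene. Of 84, 7 were listed at 0 in every library and 8 reached a mean of 1 RPKM. Of these 8, 7 fell, 0 rose and 1, ORF114, did not pass, with a median log2 fold change of -0.91, where 21% of all genes tested fell. The same number fell without amiRNACWIN24 replicate 2, where 17.3% of all genes fell, and 0 passed after removal of the length trend, where 1 had an unadjusted p under 0.05. In 2 of the 8 amiRNACWIN24 replicate 2 was more than 2-fold above each other amiRNACWIN24 library, against 17 of the 19 respiratory entries. In 5 of the 8 every amiRNACWIN24 library was below every WT library, against 1 of the 19 and 18.4% of all genes tested. This difference between the classes was not tested, since their genes share the same 8 libraries.

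ORF107A (ATMG00030, positions 11918 to 12241, plus strand), named here after its values were seen, was the most abundant member. It had 7.27, 55.9, 6.76 and 5.49 RPKM in amiRNACWIN24 and 79.5, 43.3, 35.3 and 41.7 RPKM in WT. amiRNACWIN24 replicate 2 and WT replicate 1 were each the highest of their group, and the other 3 amiRNACWIN24 libraries were below every WT library. It fell, at -2.03 ± 0.61 (SE; limma adjusted p = 0.0182), and at -2.78 without amiRNACWIN24 replicate 2 (limma adjusted p = 0.000227). It lies 502 bp from RRN26, the large ribosomal RNA, on the opposite strand, while RRN26 itself was listed at 0 in all 8 libraries.

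ORF111D (ATMG01370, positions 360717 to 361052, minus strand) had 3.23, 2.33, 2.81 and 2.71 RPKM in amiRNACWIN24 and 5.52, 8.42, 7.39 and 8.71 RPKM in WT. Here amiRNACWIN24 replicate 2 and WT replicate 1 were the lowest of their groups, the reverse of the respiratory genes. The mean was 2.77 ± 0.369 RPKM in amiRNACWIN24 and 7.51 ± 1.44 RPKM in WT (SD, n = 4 each), and the gene fell, with a log2 fold change of -1.28 ± 0.15 (SE; limma adjusted p = 0.000153), the lowest adjusted p among the members. It lies 9 bp from RRN5, the 5S ribosomal RNA, on the same strand.

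ORF149 (ATMG00660, positions 190104 to 190553, minus strand) had 2.33, 3.31, 2.35 and 2.19 RPKM in amiRNACWIN24 and 5.27, 5.64, 6.53 and 4.2 RPKM in WT, without overlap. It fell, at -0.96 ± 0.15 (SE; limma adjusted p = 0.000681). ORF262 had 0.521, 0.843, 0.479 and 0.672 RPKM in amiRNACWIN24 and 1.57, 1.38, 1.19 and 2.17 RPKM in WT and fell, at -0.87 ± 0.19 (SE; limma adjusted p = 0.00363). ORF113 had 0.656, 0.916, 0.773 and 0.775 RPKM in amiRNACWIN24 and 1.31, 2.12, 1.21 and 1.46 RPKM in WT and fell, at -0.64 ± 0.17 (SE; limma adjusted p = 0.0111). In both, the groups did not overlap, but ORF113 rests on 6 to 8 reads in amiRNACWIN24 libraries and 11 to 20 reads in WT libraries, and its direction turned after removal of the length trend, at 0.16. ORF106F and ORF240A also fell, at -1.21 ± 0.40 and -0.50 ± 0.16 (SE; limma adjusted p = 0.0284 and 0.0233). ORF114, which overlaps NAD3 by 44 bp, had 1.08, 1.93, 1.53 and 4.06 RPKM in amiRNACWIN24 and 2.69, 2.1, 2.4 and 5.9 RPKM in WT, and its highest library in each group was replicate 4.

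**Figure D3:**
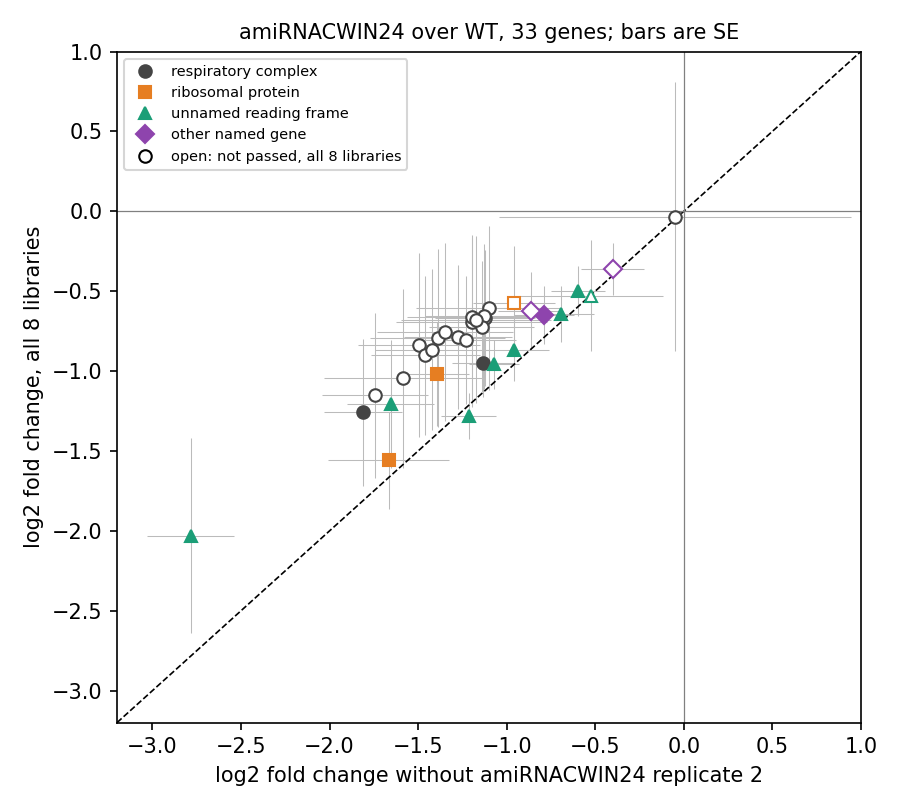
Log2 fold change of amiRNACWIN24 over WT for the 33 genes, with all 8 libraries (vertical axis) against the same without amiRNACWIN24 replicate 2 (horizontal axis); bars are SE, filled symbols fell with all libraries, open symbols did not pass and the dashed line marks equal values. Most respiratory entries (circles) lie above the line, with a median of -0.79 against -1.23, whereas most unnamed reading frames (triangles) lie closer to it, with medians of -0.91 and -1.01.

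Expressed reading frames stood close to named genes, where neighbours were named protein and ribosomal RNA genes and transfer RNAs were left out. The 8 tested reading frames were a median of 248 bp from the nearest named gene, and 6 of them were within 600 bp. The 76 that averaged under 1 RPKM were a median of 2790 bp away, with 16 of them within 600 bp. On the same strand as that neighbour were 7 of the 8 and 42 of the 76. The 3 reading frames just under the limit were ORF294 at a mean of 0.742 RPKM, which lies 146 bp from ATP1, ORF101B at 0.726 RPKM, which lies 1089 bp from ATP1, and ORF275 at 0.468 RPKM, which lies 293 bp from NAD5B. With transfer RNAs counted, some distances in both sets would be shorter. The tested ORF240A, put 12826 bp from NAD5B, ends at 204310, while TRNK.2 starts at 204340. ORF107G, which averaged under 1 RPKM and was put 3426 bp from ATP9, encloses TRND_1. No test was made, because the limit on the mean defined both sets.

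**Figure D4:**
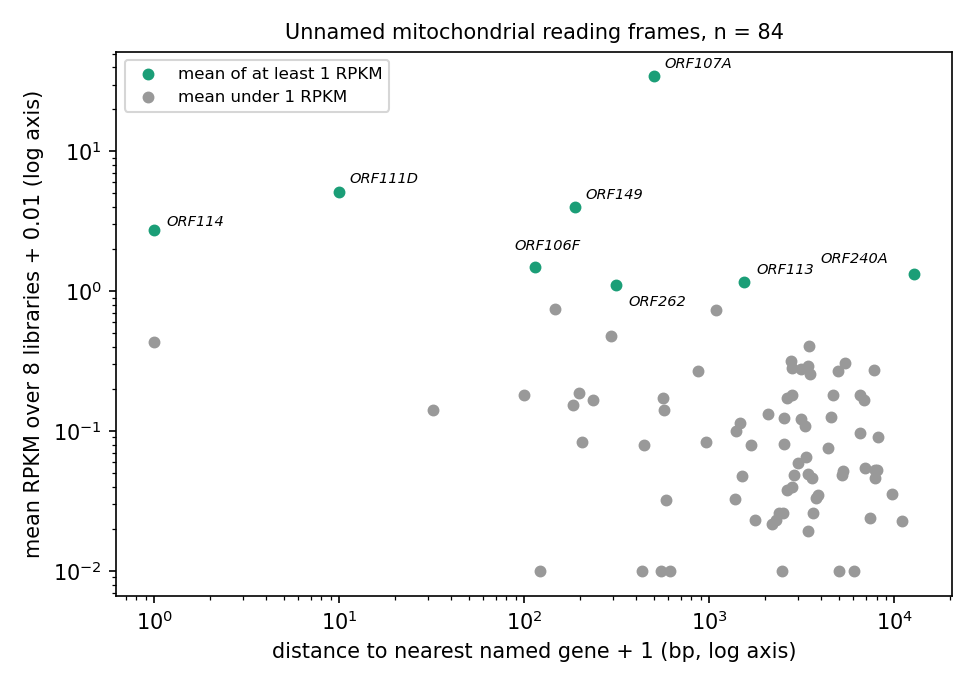
Mean RPKM over the 8 libraries, plus 0.01, of the 84 unnamed reading frames against the distance in bp to the nearest named mitochondrial gene (transfer RNAs left out), plus 1, both on log axes. The 8 with a mean of at least 1 RPKM (green) are at a median distance of 248 bp, while the other 76 (grey) are at a median of 2790 bp.

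The 80 members with reads but a mean under 1 RPKM were each given a two-sided exact permutation test, which has 70 arrangements of 4 and 4 libraries. 3 of them, ORF157, ORF240B and ORF106E, reached 0.0286, the smallest p that 4 libraries against 4 can give, and all 3 were lower in amiRNACWIN24. After Benjamini-Hochberg adjustment over the 80 exact permutation tests 0 passed, and the lowest adjusted p was 0.635. With a smallest p of 0.0286, none could pass unless most of the 80 reached it. The adjusted count therefore cannot decide whether a single member changed. ORF240B had 0.0517 to 0.471 RPKM in amiRNACWIN24 libraries and 0.543 to 0.618 RPKM in WT libraries, without overlap. These values rest on 1 to 9 reads in amiRNACWIN24 libraries and 11 to 13 reads in WT libraries.

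Several named genes near 0 had reads listed under the near-identical copy on chromosome 2. ATP9, the c-ring subunit of ATP synthase, had 0, 0.466, 0 and 0 RPKM in amiRNACWIN24 and 1.43, 0, 0 and 0.142 RPKM in WT. Its identical copy AT2G07671 had 2.51, 17.7, 4.19 and 3.17 RPKM in amiRNACWIN24 and 17.7, 10.6, 9.07 and 12.4 RPKM in WT. That is the order of libraries seen in the respiratory entries, with amiRNACWIN24 replicate 2 and WT replicate 1 the highest of their groups. The copy of COB, AT2G07727, had 0.53, 3.34, 0.606 and 0.561 RPKM in amiRNACWIN24 and 3.74, 1.35, 1.65 and 1.8 RPKM in WT, again in that order.

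RPS12 and its copy AT2G07675 had equal values in amiRNACWIN24 replicates 1, 3 and 4, at 3.26, 2.6 and 4.61 RPKM, and in WT the copy was slightly the higher, at 8.72, 11.9, 13.0 and 22.9 RPKM. For RPS7, listed at 0 throughout, the copy AT2G07696 had 0.353 to 0.83 RPKM in amiRNACWIN24 libraries and 0.8 to 1.15 RPKM in WT libraries. Of 8 such nuclear copies with a mean of at least 1 RPKM, amiRNACWIN24 replicate 2 was the highest of its group in 6 and WT replicate 1 the highest of its group in 6. The median of the mean level was 1.13 RPKM for the 30 members with a near-identical copy and 2.35 RPKM for the 8 without one. How reads with several equal matches were placed is not given in the sources used here, so the split between gene and copy is uncertain for these 30. COX2, RPL16 and RPS3 had shorter nuclear matches, and the unnamed reading frames were not examined for copies. All 8 without a copy over at least 50% of the coding sequence were tested. Of these 1, RPL16, with a nuclear match over 40.6% of its coding sequence, fell with all libraries, where 21% of all genes fell. With amiRNACWIN24 replicate 2 left out, 7 of the 8 fell, all but CCMB, where 17.3% of all genes fell.

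**Figure D5:**
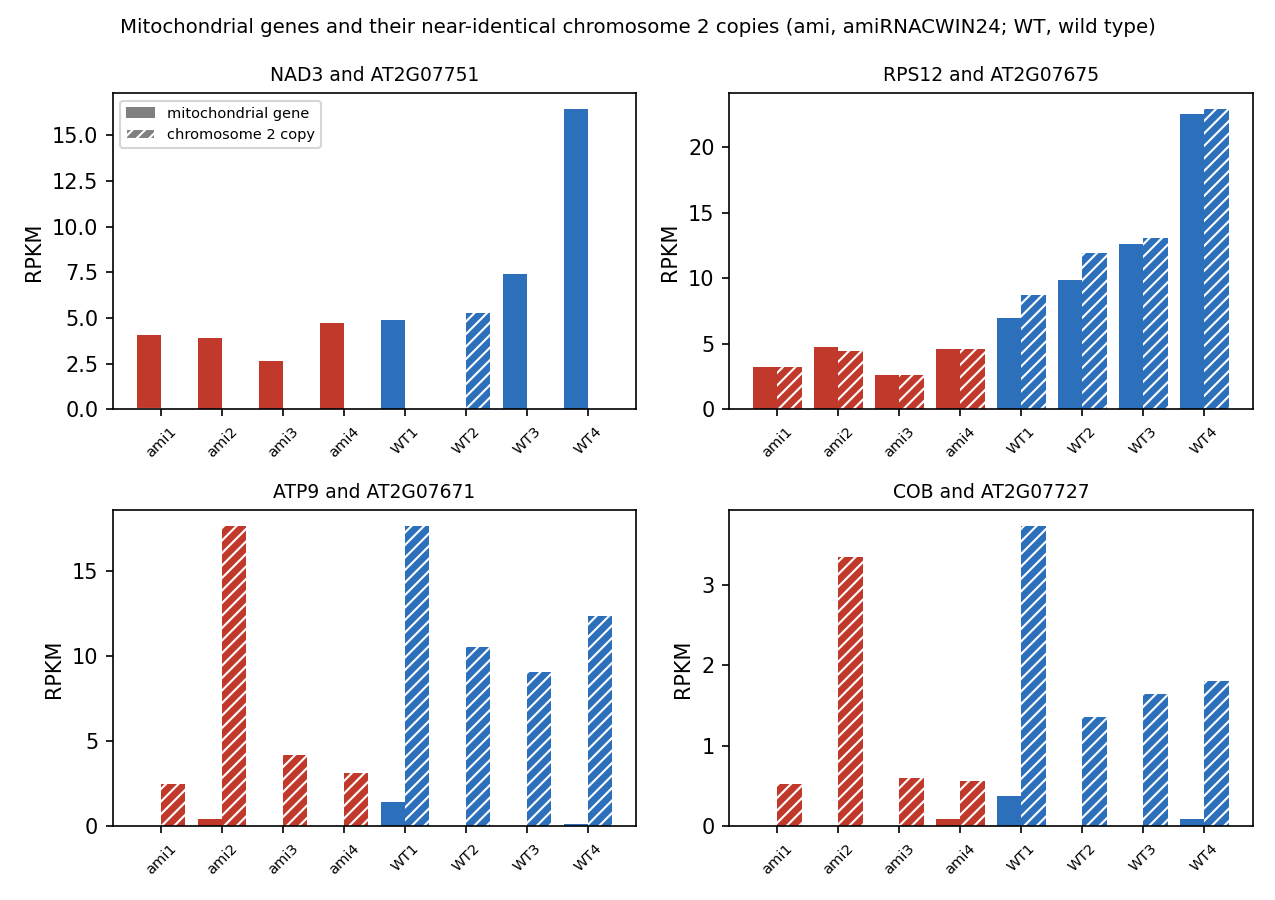
RPKM per library of NAD3, RPS12, ATP9 and COB (plain bars) beside their near-identical copies on chromosome 2 (hatched bars), amiRNACWIN24 in red and WT in blue. In WT replicate 2 NAD3 is at 0 and its copy at 5.28 RPKM, RPS12 and its copy are close in every library, and the copies of ATP9 and COB are above the mitochondrial genes in all 8 libraries.

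Nuclear genes of the same complexes are transcribed apart from the organelle, and their RPKM levels were higher in these libraries. Of 33 nuclear genes listed for complexes I to V, 21 fell, 1 rose and 11 did not pass, with a median log2 fold change of -0.33. Of all genes tested, 21% fell and 29.4% rose. Without amiRNACWIN24 replicate 2, 18 of the 33 fell and 1 rose, where 17.3% of all genes fell and 29.7% rose. With the length trend removed 19 of the 33 fell and 0 rose, where 13.9% of all genes fell and 15.1% rose. AT1G51650, the epsilon subunit of ATP synthase, had 116, 95.1, 103 and 109 RPKM in amiRNACWIN24 and 178, 204, 196 and 174 RPKM in WT, without overlap. It fell, at -0.83 ± 0.09 (SE; limma adjusted p = 0.000119). The other genes with the smallest p in their complex also fell: the complex I gene FRO1_2 at -0.55 ± 0.09, the complex II gene SDH2-2 at -0.41 ± 0.10, the complex III gene QCR7-1 at -0.68 ± 0.10 and the complex IV gene AT4G37830 at -0.77 ± 0.09 (SE; limma adjusted p = 0.000727, 0.00629, 0.000496 and 0.000165). After removal of the length trend FRO1_2 did not pass, at -0.07 (limma adjusted p = 0.236). AT1G51650, AT4G37830 and QCR7-1 still fell but by less, at -0.33, -0.27 and -0.28 (limma adjusted p = 0.00242, 0.00347 and 0.00531), and SDH2-2 was at -0.54 (limma adjusted p = 0.0035). CYTC-2, one of the cytochrome c genes whose product shuttles electrons between complexes III and IV, had 24.2, 23.2, 26.0 and 25.3 RPKM in amiRNACWIN24 and 53.9, 77.0, 55.2 and 49.9 RPKM in WT, and fell, at -1.22 ± 0.12 (SE; limma adjusted p = 7.97e-05), and at -0.74 with the length trend removed (limma adjusted p = 0.000441). In each of these 6 nuclear genes amiRNACWIN24 replicate 2 was the lowest amiRNACWIN24 library, and over all 19082 genes tested its median ratio to the mean of the other amiRNACWIN24 libraries was 0.894.

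Nuclear genes that transcribe mitochondrial DNA or process its RNA went the other way. Of 13 listed, 11 rose, 0 fell and 2 did not pass, with a median log2 fold change of 0.48, where 29.4% of all genes tested rose. At an unadjusted p under 0.05 the counts were also 11 and 0, and voom called 11 that rose and 0 that fell, where 33% and 29.9% of all genes rose. AT5G15700, the RNA polymerase RPOTmp shared by mitochondria and chloroplasts, had 6.72, 5.91, 6.57 and 6.99 RPKM in amiRNACWIN24 and 3.97, 2.83, 3.67 and 3.85 RPKM in WT. The groups did not overlap, and it rose, at 0.80 ± 0.11 (SE; limma adjusted p = 0.00042). After removal of the length trend 5 of the 13 rose, where 15.1% of all genes rose, and AT5G15700 did not, at 0.18 (limma adjusted p = 0.0659). Of the 55 chloroplast-encoded genes tested, 17 fell and 0 rose with all libraries, where 21% of all genes fell. At an unadjusted p under 0.05, 26 fell and 1 rose, and by voom 23 fell and 1 rose, where 23.9% and 20.3% of all genes fell. With amiRNACWIN24 replicate 2 left out, 47 fell, where 17.3% of all genes fell.

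In the authors' deposited table, 8 of the 33 genes had a false discovery rate under 0.05, all 8 lower in amiRNACWIN24, and 7 of the 8 also fell here. The share of all genes under that rate in the authors' comparison is not given here, so the 8 cannot be set beside it. The authors' deposited table gives a log2 fold change below 0 for all 33, but for ORF107A, the largest fall here, it gives -0.02 with a false discovery rate of 0.9997. The RPKM means of ORF107A were 18.86 ± 24.72 in amiRNACWIN24 and 49.97 ± 19.99 in WT (SD, n = 4 each), and the reason for the difference was not tested.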

How the data were processed

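Total RNA of floral buds was DNase-treated, made into Illumina libraries and read from both ends over 125 bp, with 30 M reads stated as the average depth, per the labels' protocols. Per the submitters' processing notes the build was TAIR10. Not given in the sources used here are the aligner, the counter, the strand setting and the treatment of reads with several matches. Nor is it given whether polyadenylated RNA was selected or ribosomal RNA removed. The authors deposited RPKM values per library. They also deposited their own comparison, per the file headers, holding log2 ratios, a signed fold score and p-values, which is quoted only as such. From the RPKM steps, 98.8% to 98.9% of low values came out as whole reads within 0.05 reads, for denominators of 25.6 to 26.8 M in amiRNACWIN24 and 26.6 to 29.1 M in WT libraries. The 19082 genes averaging 1 RPKM or more were fitted as log2(RPKM + 0.5) with limma 3.58.1 under R 4.3.3 (two-sided moderated test, mean-variance trend, genotype the only term), adjusted over all genes tested at a threshold of 0.05. Members under that limit were compared by exact permutation tests. Nuclear copies were found with BLAST 2.17.0 against RefSeq TAIR10.1, whose mitochondrial sequence differs from the files' build, so members were matched to it by name. P-values measure the spread between libraries of these replicates. On simulated data for this comparison (18838 genes, 200 changed) the fit recovered 59 of 59 and 46 of 46 genes changed by -1 and 1, and 19 of 41 and 19 of 52 changed by -0.5 and 0.5 on the log2 scale, with 12 false calls. The simulation gave every gene a dispersion of 0.02 and held no library that stood apart. Its recovery therefore does not carry over to members in which amiRNACWIN24 replicate 2 stood apart. The members, lists and tests were chosen with earlier results of these data known. Named were all tested respiratory and ribosomal protein genes, up to 4 of each other class with the largest change among those that passed without overlap, and 1 gene of the smallest p per nuclear list; others are named as chosen after their values were seen. The alternatives were pseudocounts of 0.1 and 1, no filter, a minimum of 5 RPKM, 4 other scalings, no variance trend, array weights, a block for the replicate number, single libraries and pairs of libraries left out, the length trend (a natural spline with 4 degrees of freedom) removed, voom on recovered reads, and members with a near-identical copy left out. Left out WT 1 with amiRNACWIN24 2, and scaling to reads in genes, were added after seeing the data.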

Additional observations from a re-analysis of the deposited data

Results flagged for a closer look

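Of 78 groups of 4 libraries examined, 28 held a library whose gap to the nearest of the others was, as a share of the range of the group, above the 95% limit of Dixon's test, where chance gives about 1 in 20. In 22 of them amiRNACWIN24 replicate 2 was the highest of its group, and these groups share that library, so they are no independent signs. Its value was 5.27 RPKM for NAD5C, 3.89 for NAD9, 3.36 for NAD6, 2.78 for NAD2A, 2.38 for NAD2B, 4.86 for NAD7, 2.65 for NAD5A, 3.82 for NAD1C, 3.44 for NAD1B, 4.21 for NAD4 and 3.49 for NAD4L, all in complex I. It was 5.6 RPKM for COX2, 5.49 for COX1, 3.59 for ATP6-1, 5.95 for ATP4 and 4.29 for ATP1, and 3.91 for RPL16, 3.94 for RPS3 and 3.31 for ORF149. The summed mitochondria-encoded level of 175 RPKM, the summed chloroplast-encoded level of 650 RPKM and the 12.1% of reads outside genes stood apart in the same library.

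WT replicate 1 stood apart from the other WT libraries as the highest for NAD7 at 5.16 RPKM, NAD1B at 3.52 RPKM, ATP1 at 5.0 RPKM and CWINV2 at 2.75 RPKM, and in its 12.5% of reads outside genes. amiRNACWIN24 replicate 2 was the lowest of its group for the nuclear complex III gene QCR7-1, at 91.7 RPKM.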

How the results depend on the processing

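With 12 of 33 mitochondria-encoded genes that fell, alternatives within 1.5 times gave 8 to 14, and 0 rose under every alternative run. Outside that range, 3 fell with a minimum of 5 RPKM and 24 with array weights. The share of all genes that fell under these 2 settings is not given here, so their counts cannot be set beside it. With the length trend removed 1 fell, and without WT 1 and amiRNACWIN24 2 27 fell, where 13.9% and 21.4% of all genes fell. Leaving out 1 library gave 8 to 29, the 29 without amiRNACWIN24 2. Of the respiratory genes, where 2 fell, 1 fell with no filter, median-of-ratios scaling, quantile normalization, the length trend removed, or scaling to nuclear RPKM or reads in genes; 0 fell with a minimum of 5 RPKM or without members with a copy, 11 with array weights, 15 without WT 1 and amiRNACWIN24 2, and 1 to 17 with 1 library left out. Of the ribosomal protein genes, where 2 fell, 1 fell with no filter, a minimum of 5 RPKM, WT 1 and 2 left out, scaling to nuclear RPKM, or without members with a copy, 0 with the length trend removed and 1 to 3 with 1 library left out. Of the reading frames, where 7 fell, 2 fell with a minimum of 5 RPKM, 0 with the length trend removed and 5 to 7 with 1 library left out. Reading frames were not examined for copies, so leaving out members with a copy could not remove any of them. A minimum of 5 RPKM and leaving out members test fewer genes. Only ORF107A, ORF111D, RPS12 and NAD3 averaged 5 RPKM or more, and of these all but NAD3 fell with that minimum. The other causes were not tested. With the replicate number as a block 10 members and 1 respiratory gene fell; same-numbered libraries correlated at -0.27, 0.14, -0.32 and 0.53, and 1 of 4 correlated best with its own number, so the numbers give no pairing. With the length trend removed, 24 of the 33 members stayed below 0. Fold changes turned positive for NAD2A at 0.031, ATP8 at 0.03, NAD4L at 0.13 and NAD1B at 0.054. They also did for ORF113 at 0.16, NAD3 at 0.75, ORF114 at 0.27, CCMB at 0.25 and ORF240A at 0.044. Of the 26 members named by rule, only NAD3 turned positive under other alternatives. NAD3 was at 0.46 with a pseudocount of 0.1, 0.69 with voom and 0.065 with scaling to nuclear RPKM. It was at 0.049 without WT 1 and amiRNACWIN24 2, and from -1.08 to 0.62 with 1 library left out, lowest without WT 2. Scaling to nuclear RPKM moved the median of all genes to 0.20, against 0.07. edgeR on recovered reads was not run, since the deposited unit is RPKM. Depth limits members such as NAD6, with 2 reads in 3 amiRNACWIN24 libraries.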
